A study of Mus musculus with 9 samples.

Results

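Blood coagulation and fibrinolysis genes were described in mouse liver RNA as 39 named genes: the fibrinogen chains, the clotting factors, their natural inhibitors, the enzymes that dissolve fibrin and the enzymes of the vitamin K cycle. They were chosen by name and kept if above 0 in at least 1 liver. All 39 of 39 met this, out of 23183 genes in the deposited tables, of which 16889 were above 0 in at least 1 liver. The levels come from RNA sequencing of 9 livers, 1 library per mouse, 3 mice in each of 3 groups.

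All mice were male C57BL/6J animals sampled at postnatal day 100 after an 8-hour fast. ND mice ate a normal diet for 10 weeks. HFD mice ate a high-fat diet for 10 weeks and received no extract. PRF 50 mice ate the high-fat diet for the same 10 weeks and, over the last 5 of them, were given by mouth each day 50 mg per kg of body weight of PRF, a fraction rich in polymethoxyflavones prepared from leaves of Citrus sunki. HFD against ND asks what the diet did, PRF 50 against HFD asks what the extract did under that diet, and PRF 50 against ND asks how the extract-treated livers stood against lean ones. Each pair of comparisons shares 3 mice. Whether HFD and ND mice were given the vehicle of the extract is not stated in the sources used here.

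Hepatocytes make most of the clotting factors found in plasma and secrete them as inactive precursors. Tissue factor starts a cascade of proteases that ends with thrombin, which cuts fibrinogen into fibrin; antithrombin, the protein C and protein S pair and other inhibitors hold the cascade back, and plasmin dissolves the clot. Several liver-made factors, fibrinogen above all, also belong to the acute-phase proteins, while factor VIII, von Willebrand factor and thrombomodulin are made largely by endothelial cells.

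Levels are given as log2(FPKM + 1), FPKM being fragments scaled for transcript length and library depth, and a difference is a difference of group means on that scale, which understates the fold change of genes with low FPKM. Library totals were not used here. The size of the smallest steps in the values put the depth of the other libraries at 0.964 to 1.60 times that of HFD mouse 1, and between 14372 and 14980 genes were above 0 in a liver. The labelled tissue was checked on 12 hepatocyte genes, of which 11 are in the tables: Apoa1, the main protein of high-density lipoprotein, was the most abundant, and the summed level of the 11 was 25095 to 37233 FPKM over the 9 livers. None of the 11 passed the test in any comparison (under alternatives, Cps1 was called lower in HFD against ND without HFD mouse 1, and Ttr lower in PRF 50 against HFD with a minimum of 10 FPKM, quantile normalization or eBayes without a trend), with 4, 5 and 4 of 11 above 0 in HFD against ND, PRF 50 against HFD and PRF 50 against ND. In HFD against ND the 4 became 8 without ND mouse 6, and 7 without HFD mouse 3 or with quantile normalization. It became 3 without ND mouse 9 or HFD mouse 1. In PRF 50 against ND the 4 became 7 without ND mouse 6, 6 with quantile normalization, and 3 without ND mouse 9. Alb, which encodes albumin, is listed at 0 in all 9 livers, so a 0 in these tables is given here only as a listed value.

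The 39 genes differed widely in level. Fgb, the fibrinogen beta chain, had the highest mean, 3317 FPKM over the 9 livers, which was place 22 among all genes, and A2m had the lowest, 0.0176 FPKM. For the tests, 30 of the 39 genes had a mean of at least 1 FPKM over the 6 mice of a comparison, the same count in each of the 3 comparisons. The other 9 were A2m, F13a1, Plat, Plau, Plaur, Procr, Serpina5, Thbd and Vwf. Among the 30, the SD within groups had a median of 0.20, against 0.16 over all genes tested in all 3 comparisons. It was smallest for F9 at 0.10 and largest for F8 at 0.50.

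**Figure D1:**
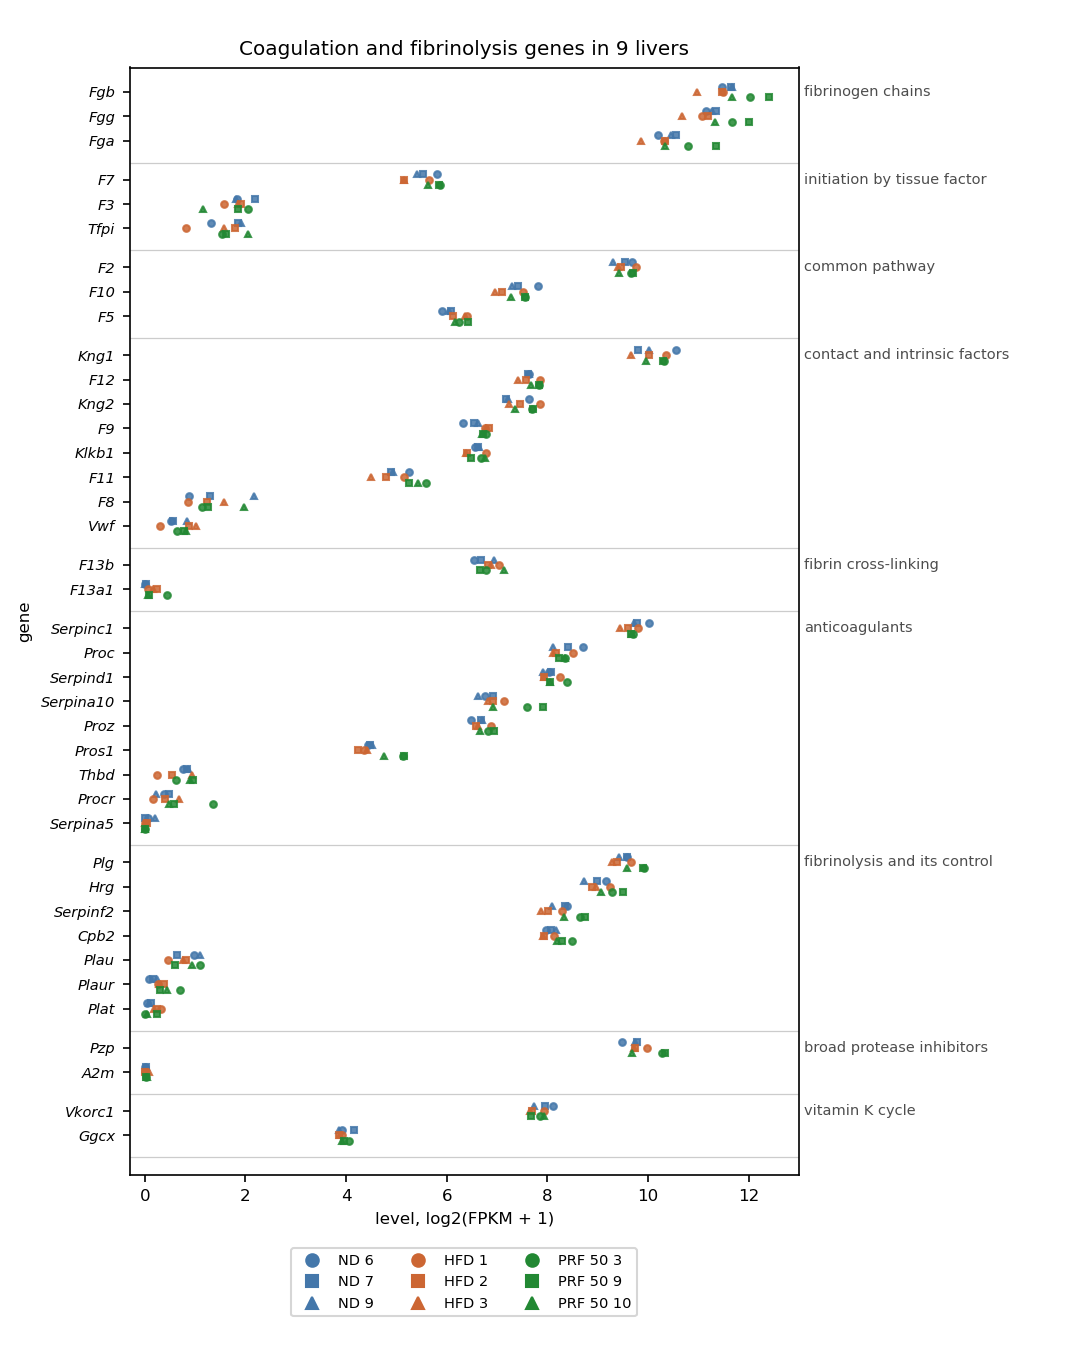
Level of each of the 39 genes in each liver on the log2(FPKM + 1) scale, 1 point per mouse, grouped by role and, within a role, ordered by mean. Fibrinogen chains lie at the right end, between 9.85 and 12.41, and the 9 genes with a mean under 1 FPKM, among them Vwf, Thbd and Plat, lie at the left end.

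Under the high-fat diet alone, no coagulation gene passed the test. HFD means minus ND means were -0.24, -0.28 and -0.28 for the fibrinogen chains Fga, Fgb and Fgg, -0.32 for the factor X gene F10, and 0.30 and 0.28 for F9 and F5, which encode factors IX and V. Without HFD mouse 3 the fibrinogen differences were -0.08, -0.11 and -0.13 and that of F10 -0.21, without ND mouse 6 that of F10 was -0.17, and with quantile normalization the fibrinogen differences were -0.06, -0.15 and -0.10. Of 9978 genes tested with limma, 70 (0.702%) were higher and 63 (0.631%) lower at an adjusted p under 0.05, and 0 of the 30 coagulation genes were among either. At an unadjusted p under 0.05, F9 and F5 counted as higher, 2 of 30, against 7.82% of all genes, and 0 of 30 counted as lower, against 7.26%. The count of higher genes was 0 without ND mouse 6, ND mouse 7 or HFD mouse 3, against 8.68%, 5.87% and 5.06% of all genes. It was 1 without HFD mouse 2, against 5.25%. Without HFD mouse 1 it was 1, against 7.3%, and F7 and F10 counted as lower, against 7.96%. Quantile normalization gave 0 higher, against 8.6%, and 1 lower, F10, against 8.0%. No minimum level gave 5 of 39 higher, against 6.4%. In F5 and F9 all 3 HFD mice lay above all 3 ND mice, which held for 10.7% of all genes, and in Pros1 all 3 lay below, which held for 10% of all genes. The 3 of 30 genes without overlap make up no larger a share than among all genes. The median difference of the 30 was -0.10, beside -0.01 over all genes tested, with 10 of 30 above 0, against 48.3% of all genes. Without HFD mouse 3 the median was -0.05 with 12 of 30 above 0, and without HFD mouse 1 it was -0.14 with 6 of 30 above 0. Quantile normalization moved the median to -0.06 and put 12 of 30 above 0, Kng1 and Plg changing sign, and left 5 genes higher without overlap, against 11.5% of all genes, with Vkorc1 in place of Pros1 as the 1 lower.

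Most coagulation genes had a higher mean in PRF 50 than in HFD livers, though not mouse by mouse: the median deviation of the 30 genes from their mean over the 9 livers was -0.01 in PRF 50 mouse 10 and 0.09 in HFD mouse 1. Pros1, which encodes protein S, the cofactor of activated protein C, was the 1 gene of 30 that passed the test, at a difference of 0.67. The 3 fibrinogen chains, the alpha-2-antiplasmin gene Serpinf2 and the factor XI gene F11 stood 0.52 to 0.72 above HFD without passing it. Of 10084 genes tested with limma, 144 (1.43%) were higher and 218 (2.16%) lower at an adjusted p under 0.05, and the coagulation genes held 1 of the higher and 0 of the lower. At an unadjusted p under 0.05, 8 of 30 were higher, against 8.47% of all genes, and 0 of 30 were lower, against 11.8%: Pros1, F11, Serpinf2, Fgg, F7, Fgb, Cpb2 and Fga. The 8 became 10, 5 and 3 without HFD mice 1, 2 and 3, against 8.57%, 6.8% and 6.5% of all genes. Without PRF 50 mice 3, 9 and 10 they became 5, 4 and 11, against 6.65%, 7.56% and 8.5%. The count was 10, against 7.97%, with all 9 mice in 1 fit and 9, against 8.51%, with eBayes without a trend. It was 6 of 39, against 7.72%, with no minimum level and 12, against 9.23% of all genes, with quantile normalization. The 3 PRF 50 mice lay above all 3 HFD mice in 6 of 30 genes (Fgb, Fgg, F11, Pros1, Serpinf2 and Cpb2), against 10.9% of all genes, and below them in 0 of 30, against 15.3%. The median difference was 0.20, beside -0.02 over all genes, with 26 of 30 above 0, against 47.0% of all genes. Without HFD mouse 3 the median was 0.13 with 22 of 30 above 0. Quantile normalization put 29 of 30 above 0, with F5, F9 and F13b changing sign, moved the median to 0.25 and left 15 of 30 genes higher without overlap, against 11.7% of all genes.

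Against ND livers, PRF 50 livers also had higher means in most coagulation genes, with no gene past the test. The differences were 0.71 in Serpina10, 0.52 in Pros1 and 0.44 in Fgb, the last 0.25 without PRF 50 mouse 9. Of 10051 genes tested with limma, 16 (0.159%) were higher and 30 (0.298%) lower at an adjusted p under 0.05, and 0 of the 30 coagulation genes were in either set. At an unadjusted p under 0.05, Pros1, Serpina10 and F11 were higher, 3 of 30 against 6.06% of all genes, and 0 of 30 were lower, against 6.44%. The 3 became 6, 2 and 1 without ND mice 6, 7 and 9, against 5.4%, 4.8% and 6.74% of all genes. Without PRF 50 mice 3, 9 and 10 they became 1, 2 and 8, against 4.56%, 4.85% and 6.32%. The count was 6, against 6.84%, with all 9 mice in 1 fit and 5, against 6.09%, with eBayes without a trend. It was 5 of 39, against 6.35%, with no minimum level and 14, against 6.63% of all genes, with quantile normalization. Pros1 was among the genes counted each time. All 3 PRF 50 mice lay above all 3 ND mice in 7 of 30 genes (Fgb, F5, F9, F11, F12, Pros1 and Cpb2), against 8.19% of all genes, and below them in Serpinc1, against 11.8%. The median difference was 0.20, beside -0.03 over all genes, with 25 of 30 above 0, against 43.4% of all genes. Quantile normalization put 24 of 30 above 0, with F10, F8 and Tfpi changing sign, moved the median to 0.32 and left 16 of 30 genes higher without overlap, against 8.82% of all genes, and 0 lower. A fold change over 2 joined to an unadjusted p under 0.05, modelled on the criterion of the study but run here on limma p-values and differences of mean log2 levels, named 0 of the 30 genes in each comparison, against 1.34% of all genes in HFD against ND, 2.10% in PRF 50 against HFD and 1.76% in PRF 50 against ND.

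**Figure D2:**
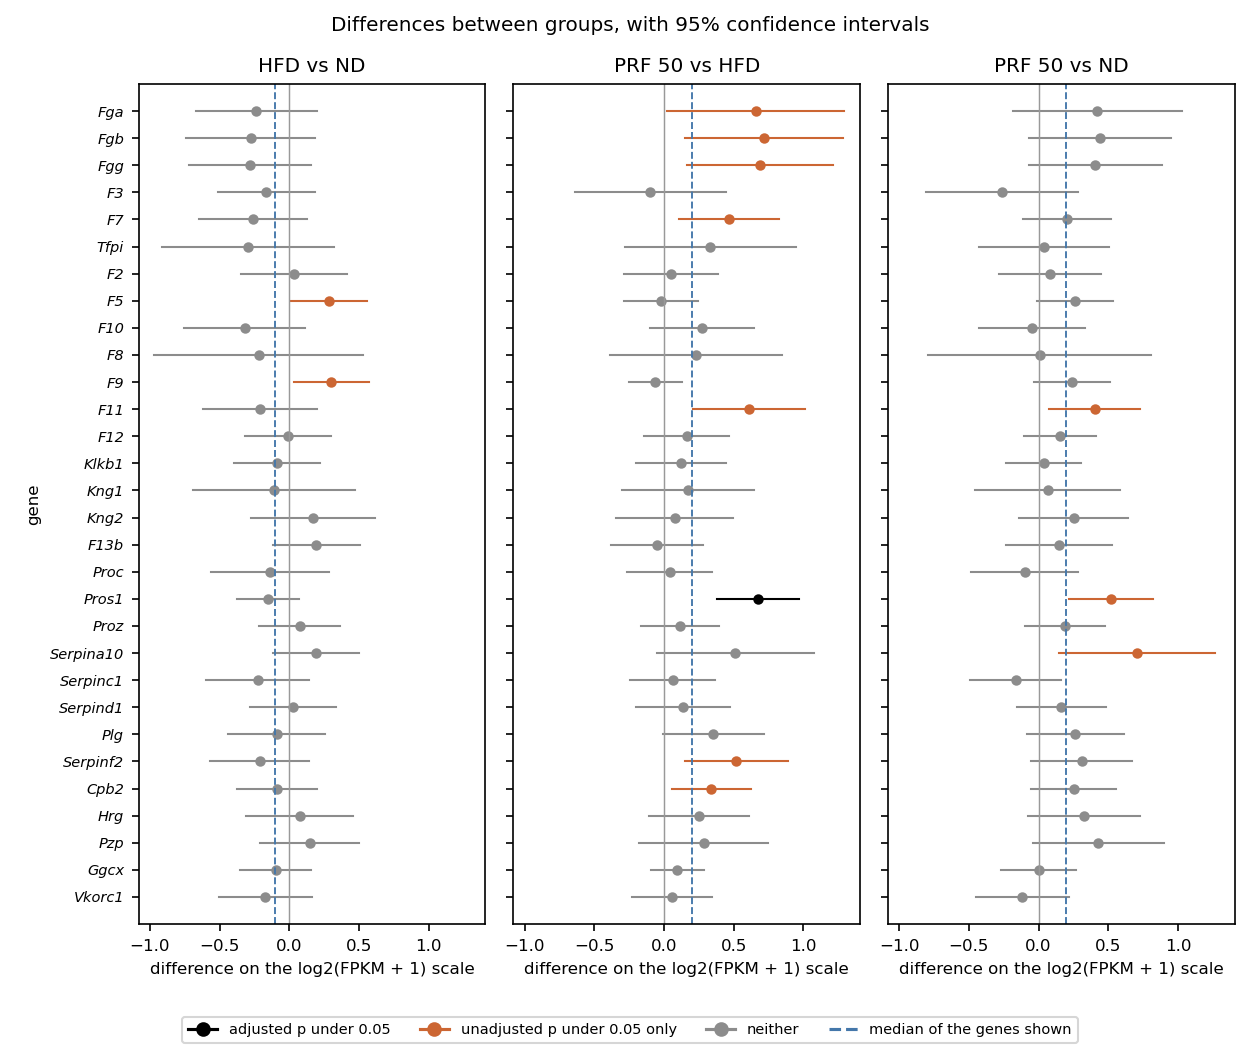
Difference in mean level between groups of 3 mice for the 30 genes tested, on the log2(FPKM + 1) scale, with the 95% confidence interval from limma, in the 3 comparisons. Pros1 in PRF 50 against HFD is the 1 gene past an adjusted p of 0.05; the dashed lines mark the medians, -0.10, 0.20 and 0.20, and the comparisons share mice.

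Fibrinogen is built from pairs of 3 chains, and its genes Fgg, Fga and Fgb stand side by side on chromosome 3 in this order, with 11026 and 6513 bases between neighbours and Fgb on the opposite strand. Because the 3 genes varied together from liver to liver, 150 bases before each gene's RefSeq start (GRCm38.p6) are shown, 5′ to 3′ on the gene's own strand; capitals mark CTGGGA, the core of a response element for interleukin-6 described in acute-phase promoters. Fga lies at chr3:83026003-83026152 on the plus strand, Fgb at chr3:83049864-83050013 on the minus strand and Fgg at chr3:83007574-83007723 on the plus strand.
Fga: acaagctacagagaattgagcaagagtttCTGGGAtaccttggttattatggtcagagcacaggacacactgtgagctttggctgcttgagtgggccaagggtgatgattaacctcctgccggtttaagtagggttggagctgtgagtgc
Fgb: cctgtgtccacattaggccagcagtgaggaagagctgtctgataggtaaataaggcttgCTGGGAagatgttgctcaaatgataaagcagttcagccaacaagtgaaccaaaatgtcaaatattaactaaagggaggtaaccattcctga
Fgg: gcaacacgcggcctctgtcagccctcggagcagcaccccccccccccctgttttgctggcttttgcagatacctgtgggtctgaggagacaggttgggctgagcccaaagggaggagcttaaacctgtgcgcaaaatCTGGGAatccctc

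The first base of CTGGGA lies 121 bases before the start in Fga, 91 in Fgb and 13 in Fgg. Searched on both strands in the 300 bases from 250 before to 50 after the start, CTGGGA is in 31.8% of all 32851 promoters listed and in 15 of the 32 promoters, 46.9%, of the 30 coagulation genes that have an entry. The longer CTGGGAA, which contains it, is in 11.1% of all promoters and 5 of the 32, 15.6%, those of Fgb and Fgg among them. TTCNNNGAA, the spaced palindrome that STAT proteins are known to bind, is in 8.30% of all promoters and 4 of the 32, 12.5%: those of Fga, Fgb, F9 and Pros1. These motifs were picked after the sequences were seen, and a match is a description of letters.

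The level of Fgb was 11.47, 11.64 and 11.66 in ND mice 6, 7 and 9, 11.49, 11.47 and 10.98 in HFD mice 1, 2 and 3, and 12.02, 12.41 and 11.67 in PRF 50 mice 3, 9 and 10. HFD mouse 3 was the lowest and PRF 50 mice 3 and 9 were the highest, while PRF 50 mouse 10 stood barely above ND mouse 9, so the PRF 50 values lay above all others without a wide gap. Fgg, the gamma chain, and Fga, the alpha chain, are given in full too, a choice made after their values were seen. Fgg was at 11.16, 11.35 and 11.27 in ND, 11.07, 11.19 and 10.67 in HFD, and 11.67, 11.996 and 11.33 in PRF 50 mice. Fga was at 10.20, 10.55 and 10.45 in ND, 10.31, 10.33 and 9.85 in HFD, and 10.78, 11.35 and 10.33 in PRF 50 mice. In both, HFD mouse 3 was lowest and PRF 50 mice 3 and 9 highest, and PRF 50 mouse 10 lay among the ND values.

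Between PRF 50 and HFD mice, Fgb differed by 0.72 (SE 0.24, adjusted p 0.155 with limma), Fgg by 0.69 (SE 0.22, adjusted p 0.146 with limma) and Fga by 0.66 (SE 0.27, adjusted p 0.232 with limma). Without PRF 50 mouse 9 the Fga difference was 0.39. None of the 3 passed the test, and the 95% interval for Fgb ran from 0.15 to 1.29. Within a mouse the spacing of the chains varied less than their levels: the Fgb level exceeded the Fgg level by 0.28 to 0.42 in all 9 livers. It exceeded the Fga level by 1.06 to 1.34, and the Fgg level exceeded the Fga level by 0.64 to 0.99. Fgb itself ranged over 1.43 across the same livers, Fgg over 1.32 and Fga over 1.50. The 3 genes thus varied together across mice, with PRF 50 mouse 9 and HFD mouse 3 at the ends.

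The summed level of 21 acute-phase genes was highest in PRF 50 mice 3 and 9. It was 7524, 8036 and 5710.5 FPKM in ND, 9566, 7494 and 7216 FPKM in HFD, and 37396, 19016 and 6831 FPKM in PRF 50 mice 3, 9 and 10. PRF 50 mouse 10 was below every HFD mouse. Gene by gene, PRF 50 mice 3 and 9 were the highest pair in 13 of 21 and not in the other 8, such as Orm1 and Il6ra, named after their values were seen. Hpx, which encodes the heme carrier hemopexin, was the most abundant of the list, and none was listed at 0 in all livers. Against HFD, 19 of 21 tested were above 0 with a median difference of 0.88 and 0 passed the test; against ND, 21 of 21 were above 0 with a median of 0.98 and 0 passed. Without PRF 50 mouse 10, 8 passed against HFD and 6 against ND, all higher, at medians of 1.29 and 1.52; without PRF 50 mouse 3 the medians were 0.42 and 0.61 and 0 passed. Saa1, a serum amyloid A gene named after its values were seen, was at 12.46, 11.51 and 6.73 in PRF 50 mice 3, 9 and 10, and at 8.43, 6.97 and 7.68 in HFD mice. In HFD against ND, 18 of 20 acute-phase genes tested were above 0 and 2 rose: Lcn2, which encodes the iron-siderophore binder lipocalin 2, by 2.29 (adjusted p 0.0309 with limma), and Il1rn, the interleukin-1 receptor antagonist gene, by 0.95 (adjusted p 0.0332 with limma). With all 9 mice in 1 fit, or with no minimum level, neither passed, and leaving out any 1 of the 6 mice for Il1rn, or ND mouse 6 or 9 or HFD mouse 1 or 3 for Lcn2, also lost the call; the Il1rn difference was 1.50 with a pseudocount of 0.1, and over all settings the adjusted p reached 0.132 for Il1rn and 0.481 for Lcn2. With quantile normalization Orm1 was called too, lower in HFD. The 18 of 20 above 0 became 13 without ND mouse 9 and 14 without HFD mouse 1, and stayed at 17 or 18 without any other mouse. The 3 fibrinogen means were lower in HFD than in ND, while 18 of the 20 acute-phase genes tested had higher means in HFD. The part of the acute-phase genes in the fibrinogen result was not tested.

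**Figure D3:**
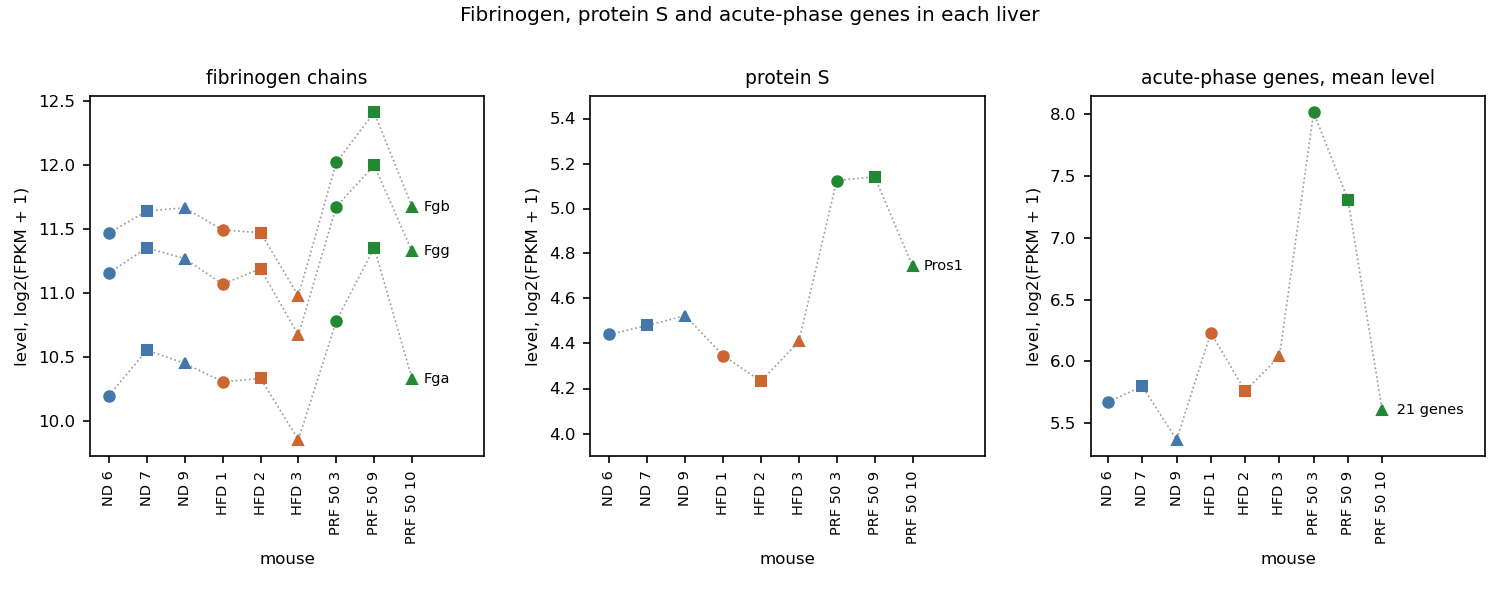
Level of the 3 fibrinogen chains, of Pros1 and of 21 acute-phase genes (mean of their levels) in each liver, on the log2(FPKM + 1) scale; each point is a mouse, the dotted lines only guide the eye and the vertical axes do not start at 0. In PRF 50 mice 3 and 9 the chains, Pros1 and the acute-phase mean are high, while PRF 50 mouse 10 is high in Pros1 and at 5.60 in the acute-phase mean, among the ND mice.

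Coagulation is started by tissue factor, the product of F3, together with factor VIIa, and is held back at this step by tissue factor pathway inhibitor, the product of Tfpi. F7, the most abundant of these, was at 5.81, 5.52 and 5.41 in ND, 5.65, 5.16 and 5.15 in HFD, and 5.87, 5.85 and 5.62 in PRF 50 mice. HFD mouse 1 lay just above PRF 50 mouse 10, and the other HFD mice lay below all PRF 50 mice. The F7 difference was 0.46 in PRF 50 against HFD (SE 0.15, adjusted p 0.151 with limma). Without HFD mouse 1 it was 0.63 at an adjusted p of 0.0472 with limma, the lowest of a range up to 0.353 over the other settings tried. F3 and Tfpi were low in whole liver, with means over the 9 livers of 1.81 and 1.61, and neither passed the test in any comparison.

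In the common pathway, factor Xa with its cofactor factor Va turns prothrombin, the product of F2, into thrombin. F2 was at 9.69, 9.53 and 9.30 in ND, 9.75, 9.46 and 9.41 in HFD, and 9.65, 9.69 and 9.42 in PRF 50 mice. No group stood apart, and the group means, 9.51, 9.54 and 9.59, differed by less than the SD within groups of 0.18. For F10, named after its values were seen, the group means were 7.51 in ND, 7.19 in HFD and 7.46 in PRF 50 mice, with the SD between 0.15 and 0.28. F5, chosen likewise, had means of 6.01 in ND, 6.30 in HFD and 6.27 in PRF 50 mice, with an adjusted p of 0.314 with limma for HFD against ND. F7, F10 and Proz, a run of related vitamin K-dependent genes, stand in this order on chromosome 8 with 1498 and 4237 bases between them.

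Contact factors and intrinsic factors amplify the cascade: kininogen, prekallikrein and factor XII start it on surfaces, and factors XI, IX and VIII feed thrombin formation. Kng1, a kininogen gene and the most abundant of the 8 genes, was at 10.56, 9.79 and 10.02 in ND, 10.36, 10.02 and 9.66 in HFD, and 10.31, 10.30 and 9.96 in PRF 50 mice. The 3 groups overlapped fully. Kng1 and Kng2 are close copies on chromosome 16, so their separate levels are uncertain. F9, named after its values were seen, had means of 6.49 in ND, 6.79 in HFD and 6.73 in PRF 50 mice and SDs of 0.16, 0.05 and 0.04. All 6 mice on the high-fat diet lay above all 3 ND mice in F9, with an adjusted p of 0.289 for HFD against ND with limma. F11, named after its values were seen, was at 5.24, 4.90 and 4.92 in ND, 5.14, 4.80 and 4.50 in HFD, and 5.59, 5.24 and 5.43 in PRF 50 mice. PRF 50 mice lay above all others, PRF 50 mouse 9 only just above ND mouse 6. The F11 difference was 0.61 against HFD (SE 0.17, adjusted p 0.104 with limma) and 0.40 against ND (SE 0.14, adjusted p 0.298 with limma). Of F12, Klkb1 and Kng2, none passed the test in any comparison, and their means over the 9 livers were 7.67, 6.59 and 7.48.

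Fibrin is cross-linked by factor XIII, whose catalytic A subunit, encoded by F13a1, is made by blood cells and macrophages and whose carrier B subunit, encoded by F13b, is made by hepatocytes. F13a1 was listed at 0 in ND mice 6 and 9 and at 0.03 in ND mouse 7, at 0.06, 0.25 and 0.17 in HFD, and at 0.45, 0.08 and 0.07 in PRF 50 mice. These are levels near 0, and PRF 50 mouse 3 was the highest. F13b had means of 6.71 in ND, 6.91 in HFD and 6.86 in PRF 50 mice and did not pass the test in any comparison.

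Of 9 anticoagulant genes, 6 were tested, and Pros1 was the 1 that passed, in PRF 50 against HFD, where 1.43% of all genes were higher. Protein S helps activated protein C to inactivate factors Va and VIIIa, serves tissue factor pathway inhibitor as a cofactor, and is a ligand of the TAM receptors that clear dying cells; hepatocytes, endothelial cells and macrophages make it. Its gene lies at chr16:62854307-62929346 on the plus strand (GENCODE M21), and its promoter, at chr16:62854157-62854306 on the plus strand from RefSeq (GRCm38.p6), is shown because it is the gene that passed the test; capitals mark TTCNNNGAA, 92 bases before the start, and CTGGGA on either strand, 80 and 47 bases before it.
Pros1: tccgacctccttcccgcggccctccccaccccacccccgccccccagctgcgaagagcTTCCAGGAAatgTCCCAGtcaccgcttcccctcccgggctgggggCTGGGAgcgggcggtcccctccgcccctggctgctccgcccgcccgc

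Pros1 was at 4.44, 4.48 and 4.52 in ND mice 6, 7 and 9, at 4.35, 4.23 and 4.41 in HFD mice 1, 2 and 3, and at 5.12, 5.14 and 4.74 in PRF 50 mice 3, 9 and 10. The groups did not overlap: every HFD mouse lay below every ND mouse, and every PRF 50 mouse lay above all 6 others, mouse 10 least. With quantile normalization the HFD and ND mice overlapped, and the PRF 50 mice still lay above both groups. It rose by 0.67 in PRF 50 against HFD (SE 0.13, 95% interval 0.38 to 0.97, adjusted p 0.0370 with limma), in 3 of 3 mice, a factor of 1.60 on the FPKM + 1 scale. Against ND the difference was 0.52 (SE 0.13, adjusted p 0.154 with limma), and in HFD against ND it was -0.15 (SE 0.10, adjusted p 0.510 with limma). These 3 comparisons share mice. The call rests on a narrow margin. Leaving out HFD mouse 1, 2 or 3 or PRF 50 mouse 3 or 9 gave a difference of 0.60 to 0.71 and an adjusted p of 0.0756 to 0.127 with limma, and testing all genes without a minimum level gave an adjusted p of 0.0710. Over all settings tried, the adjusted p of Pros1 ran from 0.0189 to 0.127 and the difference from 0.60 to 0.80.

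Kupffer cell markers were higher in the same PRF 50 livers. The summed level of 12 markers was 96.6, 181 and 229 FPKM in ND, 113, 184 and 184 FPKM in HFD, and 622, 389.8 and 409 FPKM in PRF 50 mice 3, 9 and 10. All 3 PRF 50 mice lay above all 6 others. Cd5l, which encodes a secreted macrophage scavenger protein, was the most abundant, and none of the 12 was at 0 in all livers. Against HFD, 12 of 12 were above 0 with a median difference of 1.43, and 10 of 12 rose: Timd4, a receptor for dying cells, by 1.49 (adjusted p 0.0150 with limma), and Vsig4, the complement receptor of Kupffer cells, by 1.27 (adjusted p 0.0182 with limma), among them. Timd4 lost the call without HFD mouse 3 or PRF 50 mouse 3, Vsig4 also without HFD mouse 2 and with all 9 mice in 1 fit, and the highest adjusted p over the settings was 0.0560 and 0.0592. The 10 became 6 with all 9 mice in 1 fit, 3 with no minimum level, 8, 2 and 0 without HFD mouse 1, 2 and 3, and 1, 9 and 6 without PRF 50 mouse 3, 9 and 10. Against ND, 12 of 12 were above 0, median 1.34, and 0 passed the test, with 3 past it in 1 fit of all 9 mice or without ND mouse 9 and 1 without PRF 50 mouse 9; in HFD against ND, 5 of 12 were above 0 and 0 passed, the 5 becoming 0, 8 and 9 without ND mice 6, 7 and 9 and 10, 2 and 2 without HFD mice 1, 2 and 3. Of 10 genes listed as markers of recruited myeloid cells, 4 were tested against HFD. Ccr2, Itgam, Itgax and Cx3cr1, at no more than 1.25, 0.79, 0.55 and 0.49 in any liver, were not among them. Of the 4, 1 rose, Cd68, by 0.99 (adjusted p 0.0238 with limma). Cd68 is a lysosomal gene of macrophages in general and does not tell recruited cells from Kupffer cells. Its call was kept without PRF 50 mouse 9. It was lost without any other of the 6 mice and with no minimum level, at up to 0.0846. Plac8 was also called with all 9 mice in 1 fit and Lyz2 without PRF 50 mouse 9. In the other 2 comparisons 0 of 3 and 0 of 4 passed, though with all 9 mice in 1 fit Cd68 and Plac8 were called higher in PRF 50 against ND; the most abundant was Lyz2, and the summed level was 26.2 to 61.4 FPKM in the 6 ND and HFD mice and 179, 76.5 and 117 FPKM in PRF 50 mice. In whole liver, more cells of a type and more RNA per cell cannot be told apart. The part of these cells in the Pros1 result was not tested.

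Of the other anticoagulants, Serpinc1, which encodes antithrombin, the main inhibitor of thrombin and factor Xa, was the most abundant, with means of 9.84 in ND, 9.62 in HFD and 9.68 in PRF 50 mice; its exons share 2942 bases with Zbtb37 on the opposite strand, a gene at 0.93 or less, and whether the authors' counting used strand is not stated. Also on the opposite strand, Plg shares 420 exon bases with Slc22a3, a gene at 1.65 or less. On that strand too, Pzp shares 303 with Gm10069, at 0.54 or less, and F5 262 with Gm16548, which reached 3.66. Fgg shares 115 with Gm30097 and F13a1 74 with Gm30489, again on the opposite strand. The levels of these 5 genes carry the same limit. On the same strand, Klkb1 shares 2267 with Gm45753 and Vkorc1 401 with Gm21974, and strand cannot separate reads from those bases. Gm30097, Gm30489, Gm45753 and Gm21974 are not in the tables. Serpina10, which encodes the protein Z-dependent inhibitor of factor Xa and is named after its values were seen, was at 6.76, 6.93 and 6.62 in ND, 7.14, 6.93 and 6.82 in HFD, and 7.59, 7.91 and 6.92 in PRF 50 mice. PRF 50 mice 3 and 9 lay above all others and PRF 50 mouse 10 lay among HFD and ND mice, the pattern seen in Fga. The Serpina10 difference was 0.71 against ND (SE 0.24, adjusted p 0.292 with limma), above that of Pros1 in the same comparison. Proc, Proz and Serpind1, for protein C, protein Z and heparin cofactor II, had means over the 9 livers of 8.33, 6.71 and 8.07 and did not pass the test in any comparison. Serpina5, the protein C inhibitor gene, was listed at 0.06, 0 and 0.20 in ND, at 0, 0.05 and 0 in HFD, and at 0 in all 3 PRF 50 mice, so it was listed at 0 in 6 of 9 livers.

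Some of the low genes are known products of endothelium, and 4 of these had their lowest value in the same liver. F8, Vwf, Thbd and Tfpi, singled out after their values were seen, were all lowest in HFD mouse 1, at 0.86, 0.29, 0.25 and 0.83. F8 was at 0.88, 1.29 and 2.17 in ND, 0.86, 1.23 and 1.58 in HFD, and 1.13, 1.26 and 1.97 in PRF 50 mice. ND mouse 9 and PRF 50 mouse 10 were the highest in F8, and the groups overlapped, with means of 1.45, 1.23 and 1.45. The summed level of 12 sinusoidal endothelial markers was 82.7, 106 and 139 FPKM in ND, 36.2, 77.5 and 102 FPKM in HFD, and 81.8, 79.8 and 137 FPKM in PRF 50 mice, so that HFD mouse 1 was lowest, and ND mouse 9 and PRF 50 mouse 10 were highest, as in F8 and Tfpi. Vwf and Thbd differed from this at the high end: Vwf was highest in HFD mice 3 and 2, at 1.03 and 0.89, and Thbd in PRF 50 mouse 9 and HFD mouse 3, at 0.97 and 0.93. Clec4g, a lectin gene of these cells, was the most abundant, none of the 12 was at 0 in all livers, and 0 of 12 passed the test in each comparison, with 11 of 12 below 0 in HFD against ND, 10 of 12 above 0 in PRF 50 against HFD and 4 of 12 in PRF 50 against ND. In PRF 50 against ND the count above 0 became 2 without ND mouse 6 or PRF 50 mouse 10. It became 6 without ND mouse 9 or PRF 50 mouse 3. The median difference of the markers in PRF 50 against HFD was 0.43, and 0.085 without HFD mouse 1. The part of endothelial cells in the levels of F8, Vwf, Thbd and Tfpi was not tested. Procr, the endothelial protein C receptor gene, also named after its values were seen, did not share the pattern fully: its highest value, 1.35, was in PRF 50 mouse 3, beside 0.17 to 0.68 in the 8 other livers. Plat, the tissue plasminogen activator gene, went the other way. Its highest value of the 9 livers, 0.32, was in HFD mouse 1, and its lowest, 0, in PRF 50 mouse 3.

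**Figure D4:**
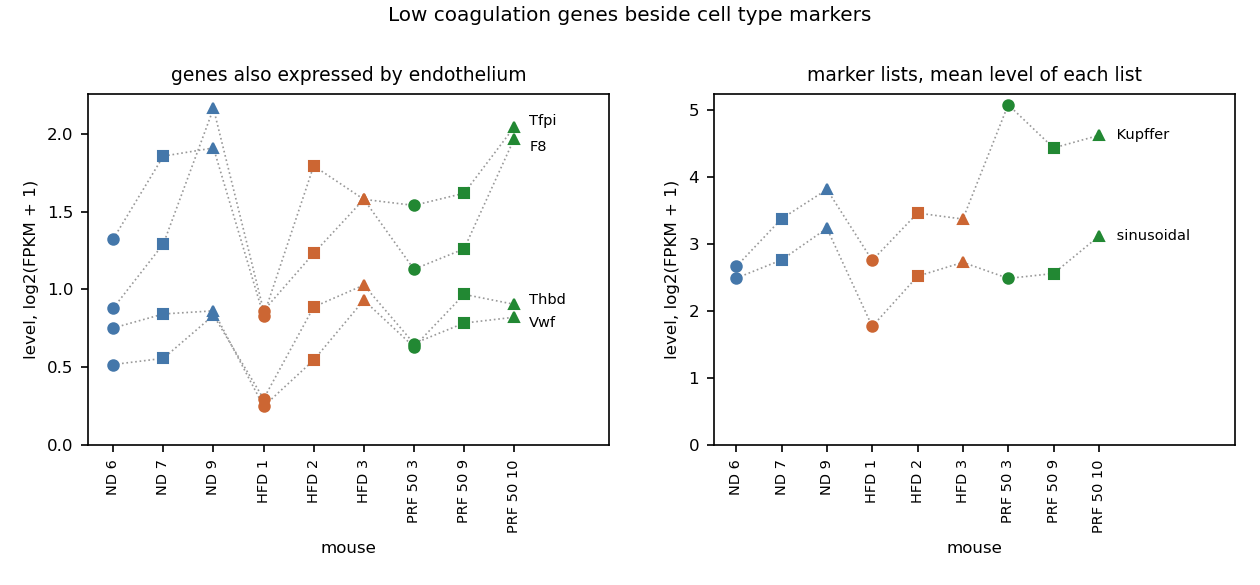
Level of F8, Tfpi, Vwf and Thbd in each liver (left) and mean level of 12 sinusoidal endothelial and 12 Kupffer cell markers (right), on the log2(FPKM + 1) scale, 1 point per mouse; dotted lines only guide the eye. HFD mouse 1 is lowest in all 4 genes and in the sinusoidal mean, at 1.77; PRF 50 mice are highest in the Kupffer mean, at 5.08, 4.44 and 4.62.

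Fibrinolysis begins when the activators encoded by Plat and Plau turn plasminogen, the product of Plg, into plasmin; alpha-2-antiplasmin, the carboxypeptidase TAFI and histidine-rich glycoprotein act on this step. Plat was listed at 0.05, 0.13 and 0.09 in ND, 0.32, 0.24 and 0.18 in HFD, and 0, 0.24 and 0.05 in PRF 50 mice. The 3 HFD mice lay above the 3 ND mice at these levels near 0, and PRF 50 mouse 9 lay among the HFD mice. Plau and Plaur, the urokinase gene and that of its receptor, ranged from 0.47 to 1.10 and from 0.09 to 0.71 over the 9 livers.

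The liver-made genes of fibrinolysis were higher in PRF 50 than in HFD means. Plg, the most abundant of the 7, had means of 9.53 in ND, 9.44 in HFD and 9.80 in PRF 50 mice. Serpinf2, which encodes alpha-2-antiplasmin and is named after its values were seen, was at 8.39, 8.34 and 8.08 in ND, 8.30, 8.01 and 7.87 in HFD, and 8.65, 8.75 and 8.34 in PRF 50 mice. Every PRF 50 mouse lay above every HFD mouse, PRF 50 mouse 10 only just above HFD mouse 1, and PRF 50 mouse 10 lay among the ND mice. The Serpinf2 difference against HFD was 0.52 (SE 0.16, adjusted p 0.124 with limma). Cpb2, the TAFI gene, also named after its values were seen, differed by 0.34 against HFD (SE 0.12, adjusted p 0.175 with limma), with means of 8.08, 7.99 and 8.33 in ND, HFD and PRF 50 mice. Hrg, the histidine-rich glycoprotein gene, had means of 8.96, 9.03 and 9.28 in the same order and did not pass the test. In all 4 genes tested the PRF 50 mean was above the HFD mean.

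Of the broad protease inhibitors, Pzp, the alpha-macroglobulin that mouse liver makes in quantity, had means of 9.67 in ND, 9.81 in HFD and 10.10 in PRF 50 mice, and PRF 50 mice 3 and 9 were the highest of all, at 10.27 and 10.34, with mouse 10 at 9.69. A2m was listed at 0, 0.02 and 0.02 in ND, 0, 0 and 0.08 in HFD, and 0.03, 0.02 and 0.05 in PRF 50 mice. All 9 values are near 0. Pzp did not pass the test in any comparison.

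The vitamin K cycle lets the liver carboxylate factors II, VII, IX and X and proteins C, S and Z. Vkorc1, the epoxide reductase subunit that warfarin blocks, was at 8.11, 7.96 and 7.73 in ND, 7.94, 7.69 and 7.65 in HFD, and 7.84, 7.66 and 7.94 in PRF 50 mice. All groups overlapped. Ggcx, the carboxylase gene, varied little, with means of 3.98 in ND, 3.88 in HFD and 3.98 in PRF 50 mice, and neither gene passed the test in any comparison.

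Across the 30 tested genes the mice of a group were not alike. HFD mouse 1 had the highest value of its group in 23 of 30 genes, a place it held in 41.8% of 9809 genes tested in all 3 comparisons, and HFD mouse 3 the lowest in 19 of 30, against 35.0%. PRF 50 mouse 10 had the lowest value of its group in 22 of 30, against 34.0%, while PRF 50 mice 3 and 9 had the highest in 13 and 12, against 33.9% and 31.8%. The median deviation of the 30 genes from their mean over the 9 livers was 0.20 in PRF 50 mouse 3, 0.16 in PRF 50 mouse 9 and -0.01 in PRF 50 mouse 10. It was 0.09, -0.14 and -0.21 in HFD mice 1, 2 and 3, and -0.03, -0.02 and -0.09 in ND mice 6, 7 and 9. Over all genes these medians lay between -0.02 and 0.03 in every mouse. HFD mouse 1 also had the highest mean level of its group in the 11 hepatocyte genes, 10.55 against 10.24 and 10.20 in HFD mice 2 and 3, and the lowest sums of its group in the Kupffer and sinusoidal markers given above. The hepatocyte mean was 10.39, 10.32 and 10.33 in PRF 50 mice 3, 9 and 10. In ND mouse 6 it was 10.56, the highest of the 9 livers, against 10.34 and 10.22 in ND mice 7 and 9. ND mouse 6 had the lowest Kupffer and sinusoidal sums of its group too. It had the highest value of its group in 12 of the 30 coagulation genes, against 42.9% of all genes, and the lowest in 13, against 36.2%. The part of cell content in the order of the mice was not tested.

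Among 34 other genes of the pathway (receptors, chaperones of secretion and further inhibitors), 27 or 28 were tested. Serpine2, which encodes protease nexin-1, an inhibitor of thrombin and plasminogen activators, was the 1 that passed in HFD against ND, where it fell by 0.80 (adjusted p 0.0330 with limma). In PRF 50 against HFD, F2r, the thrombin receptor gene, rose by 0.63 (adjusted p 0.0345 with limma), and S100a10, whose product with annexin A2 binds plasminogen at cell surfaces, fell by 0.96 (adjusted p 0.0400 with limma). In PRF 50 against ND, S100a10 fell by 0.80 (adjusted p 0.0447 with limma). F2r was at 3.25, 3.45 and 3.37 in HFD and 3.79, 4.13 and 4.04 in PRF 50 mice, and S100a10 at 7.33, 8.06 and 7.92 in HFD and 6.76, 6.81 and 6.86 in PRF 50 mice. Neither pair of groups overlapped. The counts above 0 were 15 of 27, 16 of 28 and 17 of 28 in HFD against ND, PRF 50 against HFD and PRF 50 against ND. Apoh, for beta-2-glycoprotein I, was the most abundant. Over the settings tried, the adjusted p was 0.0308 to 0.446 for Serpine2 in HFD against ND, 0.0259 to 0.111 for F2r, and 0.00569 to 0.137 and 0.0299 to 0.179 for S100a10 against HFD and ND. F2r, and S100a10 against ND, lost the call whichever 1 of their 6 mice was left out. Leaving out a mouse kept the Serpine2 call only for ND mouse 9, and the S100a10 call against HFD only for HFD mouse 1. Testing with no minimum level ended all 4 calls, and all 9 mice in 1 fit ended those of Serpine2 and of S100a10 against ND. Quantile normalization ended both S100a10 calls. Leaving out a mouse also brought calls for Anxa2 (without HFD mouse 1, higher in HFD against ND and lower in PRF 50 against HFD), Serpine2 (without PRF 50 mouse 9, higher in PRF 50 against HFD) and Fgl1 (without PRF 50 mouse 10, higher in PRF 50 against HFD and against ND).

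Of 20 transcription factors of liver, 20 were tested and 2 passed, both lower in PRF 50 against HFD: Nr1i2, which encodes the xenobiotic receptor PXR, fell by 0.67 (adjusted p 0.0369 with limma), and Nr1i3, which encodes its relative CAR, fell by 0.93 (adjusted p 0.0336 with limma). None passed in the other 2 comparisons, though in HFD against ND Onecut1 was called lower without ND mouse 9 or with a pseudocount of 0.1, Cebpa lower with quantile normalization and Ppara higher with a minimum of 10 FPKM; in PRF 50 against HFD, Foxa3 was called higher without HFD mouse 1 and Ppara lower without PRF 50 mouse 9. The counts above 0 were 9, 11 and 8 of 20 in HFD against ND, PRF 50 against HFD and PRF 50 against ND. With no minimum level neither passed. The Nr1i2 call was also lost whichever 1 of the 6 mice was left out, at up to 0.124, and the Nr1i3 call without any but HFD mouse 2 or PRF 50 mouse 9, at up to 0.115, and with quantile normalization, at 0.0531.

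Platelet and megakaryocyte genes were low in all livers. Of 9 platelet and megakaryocyte genes, 1 was tested, Pf4, the platelet factor 4 gene and the most abundant; Treml1 was at 0 in all livers, and the summed level was 1.72 to 4.83 FPKM over the 9 livers. The 6 neutrophil genes in the tables, of 7 listed, summed to 2.84 to 9.41 FPKM in the 6 ND and HFD mice and 55.9, 18.3 and 3.70 FPKM in PRF 50 mice 3, 9 and 10, with S100a8 the most abundant and 0 of 2 tested past the test; S100a9 was called lower in HFD against ND without ND mouse 6 and higher in PRF 50 against HFD without PRF 50 mouse 10. Of 10 stellate cell genes, 10, 10 and 9 were tested in HFD against ND, PRF 50 against HFD and PRF 50 against ND, of 6 bile duct genes 1, 1 and 2, and of the 5 erythroid genes in the tables, of 6 listed, 4 in each; 0 of those tested passed, though in HFD against ND Col1a1 was called higher without HFD mouse 1 or with all 9 mice in 1 fit, and Col3a1 without ND mouse 9. Dcn, Spp1 and Hba-a1 were the most abundant, with summed levels of 95.1 to 201, 25.8 to 42.1 and 109.6 to 228 FPKM. The stellate cell genes were above 0 in 9 of 10, 6 of 10 and 9 of 9 tested, in the same order. In HFD against ND the 9 became 6 of 10 without ND mouse 6. In PRF 50 against HFD the 6 became 2 without PRF 50 mouse 10, 4 without HFD mouse 1 and 8 without PRF 50 mouse 3. The part of these cell types in the results for coagulation genes was not tested.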

How the data were processed

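RNA from 9 livers was sequenced from poly(A)-selected, directional libraries; the authors trimmed reads, aligned them with TopHat to mm10, estimated FPKM with Cufflinks and applied a geometric normalization. The annotation is not given in the sources used here. The deposited values are log2 values, read here as log2(FPKM + 1), 1 table per mouse, and library totals were not used here, so depth is known only relative to 1 library. Values were used as deposited. For each pair of groups, the 6 mice were fitted with limma 3.58.1 in R 4.3.3 (lmFit, then eBayes with a mean-variance trend, two-sided), over all genes whose average FPKM in the 6 mice reached 1, and p-values were adjusted by Benjamini-Hochberg over all of them; a gene was called at an adjusted p under 0.05. No test was run on the list as a whole: its counts and median stand beside those of all genes. The fit was tested on simulated data. Alternatives were 1 fit of all 9 mice, leaving out each mouse, quantile normalization, scaling by median of ratios, eBayes with no trend, 0.1 as the pseudocount, and either no minimum level or one of 10 FPKM. Values in every mouse are given for genes called in any comparison, genes listed at 0 in some livers, and otherwise the most abundant gene of each role; the other genes are given by group mean, range or count. Genes singled out beyond this rule, among them the extremes of a comparison and genes called only under an alternative, were chosen after their values were seen. From other lists, called genes (at most 5 per comparison) and the most abundant gene are named. The genes and lists were chosen with earlier results of these data known. Positions are from GENCODE M21 and promoters from RefSeq GRCm38.p6, where 30 of 39 genes have an entry.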

Additional observations from a re-analysis of the deposited data

How the results depend on the processing

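No coagulation gene passed the adjusted threshold in HFD against ND or PRF 50 against ND under any setting run. In PRF 50 against HFD the 1 higher gene became 0 with no minimum level, and 0 to 1 when a mouse was left out (Pros1 without PRF 50 mouse 10, F7 without HFD mouse 1, 0 without HFD mouse 2 or 3 or PRF 50 mouse 3 or 9); 0 were lower under every setting. Quantile normalization moved the counts of genes whose groups do not overlap. In HFD against ND it gave 5 higher in place of 2, in PRF 50 against HFD 15 higher in place of 6, and in PRF 50 against ND 16 higher in place of 7 and 0 lower in place of 1, against 11.5%, 11.7%, 8.82% and 10.1% of all genes. The cause was not tested. The median difference of the genes kept its sign and moved by less than the spread between mice under every setting: it ran from -0.14 to -0.05 in HFD against ND, from 0.13 to 0.27 in PRF 50 against HFD, and from 0.16 to 0.32 in PRF 50 against ND. Calls over all genes depended on single mice. In HFD against ND, 133 calls became 35 to 140 without a mouse and 37 with no minimum level. In PRF 50 against HFD, 362 became 15 to 242 without a mouse and 126 with no minimum level. In PRF 50 against ND, 46 became 4 to 71 without a mouse, 11 with no minimum level and 107 with all 9 mice in 1 fit. A group left with 2 mice was assumed to vary like the other. Alternatives gave 410 values for the named genes called in the main fit and the coagulation genes at an unadjusted p under 0.05, each in its own comparison. Of these, 294 kept their side of the threshold, 115 lost it, 1 gained it (F7 in PRF 50 against HFD) and 0 reversed. Calls that other genes gained under an alternative, named above, are outside these values. No paired analysis was possible because the groups share fewer than 2 mouse numbers and the numbers do not pair mice. Groups of 3 and levels near 0, where the depth of the libraries is known only in relative terms, limit what these comparisons can detect.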
